A study of Mus musculus with 11 samples.

Results

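The Pax-, Six- and Eya-family genes examined here are Pax2, Pax6, Pax8, Six2, Six4, Six6, Eya1 and Eya2. Open chromatin around them was followed in 11 ATAC-seq libraries of the mouse esophagus. ATAC-seq uses a transposase that cuts accessible DNA, and each library is represented by the list of intervals its authors called as open. The intervals of all 11 lists, on chromosomes 1 to 19 and X, were merged into 124941 regions where they overlapped by at least 1 bp. A region belonged to a gene when its midpoint was nearest to that protein-coding gene body and within 100 kb of it, which held for 111956 regions. The 8 genes had 68 of these regions. A region is called occupied in a library whose list has an interval in it. Membership thus used only that a region was in at least 1 of the 11 lists, but the 8 genes were selected on their occupancy in these same libraries, so the number of them that differ between groups is a description and supports nothing by itself. The farthest region counted lay 74351 bp from Pax2. Regions nearest to a listed gene but beyond 100 kb were 7 for Eya1, the closest at 151702 bp, and 1 for Six2, at 111664 bp.

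The libraries formed 4 groups. WT is wild-type esophagus of strain CD1 sorted for low EpCAM, an epithelial adhesion protein (3 libraries). SmoM2 is Krt5-SmoM2 esophagus of strain CD1 sorted for high EpCAM (3 libraries). The SmoM2 protein is an always-active Smoothened, the Hedgehog signal transducer, here driven from Krt5, a gene of basal epithelial cells. SmoM2-Sox9cKO has the genotype Krt5-SmoM2-Sox9fl/fl, also EpCAM-high, with no strain in the labels (3 libraries), so all 6 transgenic libraries share SmoM2. Embryo is esophagus of embryonic day 13 with Krt8YFP, sorted on YFP (2 libraries). The age of the other 9 libraries and whether replicates came from separate animals are not given in the labels, so a p-value reflects the spread of these libraries alone, which may be technical. The EpCAM gate and genotype cannot be told apart in comparisons with WT. Strain cannot be told apart from the Sox9 allele in the comparison of SmoM2-Sox9cKO with SmoM2, nor from genotype in its comparison with WT. An open region present in fewer cells and one less open in every cell cannot be told apart in these bulk lists.

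Pax proteins bind DNA through a paired domain, and Pax6 and some relatives add a homeodomain. Six-family proteins are homeodomain factors, and Eya proteins are their coactivators and also act as phosphatases. Together with Dach cofactors they form a network that works in the early eye, ear, kidney and skeletal muscle. Pax2 and Pax8 act in kidney and, for Pax8, thyroid. Pax6 and Six6 act in the eye, Six2 in kidney progenitors, and Six4 in muscle.

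Promoter sequences were taken from RefSeq (GRCm38.p6) as 300-base windows, from 250 bases before a start site to 50 after it. The table held 10 windows for 6 of the 8 genes. These 6 windows are shown because they separate promoters that were open throughout from those that were open in part or never, and each is written 5′ to 3′ on the strand of its gene. Capitals mark matches, on either strand, to the CCAAT box (CCAAT), to the core of Sox sites (ACAAT) or to a Six-family site (TCAGGTT). No capitals belong to more than 1 match.
Six2, chr17:85688205-85688504, minus strand: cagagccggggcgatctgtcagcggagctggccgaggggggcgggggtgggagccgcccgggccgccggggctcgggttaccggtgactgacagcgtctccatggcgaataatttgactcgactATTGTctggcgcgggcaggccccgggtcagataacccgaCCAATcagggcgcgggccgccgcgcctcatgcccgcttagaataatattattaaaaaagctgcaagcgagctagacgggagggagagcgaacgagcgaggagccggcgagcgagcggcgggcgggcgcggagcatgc
Six4, chr12:73113196-73113495, minus strand: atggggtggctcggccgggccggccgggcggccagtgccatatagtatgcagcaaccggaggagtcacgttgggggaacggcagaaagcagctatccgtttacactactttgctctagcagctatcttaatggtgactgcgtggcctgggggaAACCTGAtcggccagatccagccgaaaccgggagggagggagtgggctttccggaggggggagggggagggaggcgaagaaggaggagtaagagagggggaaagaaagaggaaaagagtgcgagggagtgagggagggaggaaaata
Pax2, the most 3′ of its windows, chr19:44756656-44756955, plus strand: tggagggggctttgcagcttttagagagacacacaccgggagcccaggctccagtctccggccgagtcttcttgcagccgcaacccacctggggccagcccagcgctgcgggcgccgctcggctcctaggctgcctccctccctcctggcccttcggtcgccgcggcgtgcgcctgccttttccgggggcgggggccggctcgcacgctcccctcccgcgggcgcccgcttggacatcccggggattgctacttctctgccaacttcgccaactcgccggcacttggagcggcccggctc
Pax6, first window, chr2:105668646-105668945, plus strand: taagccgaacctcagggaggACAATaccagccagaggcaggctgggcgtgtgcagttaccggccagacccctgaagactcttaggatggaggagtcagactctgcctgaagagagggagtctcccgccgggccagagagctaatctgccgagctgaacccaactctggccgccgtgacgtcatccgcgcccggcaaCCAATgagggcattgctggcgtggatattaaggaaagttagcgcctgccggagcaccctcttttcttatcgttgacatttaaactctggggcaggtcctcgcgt
Pax8, chr2:24475550-24475849, minus strand: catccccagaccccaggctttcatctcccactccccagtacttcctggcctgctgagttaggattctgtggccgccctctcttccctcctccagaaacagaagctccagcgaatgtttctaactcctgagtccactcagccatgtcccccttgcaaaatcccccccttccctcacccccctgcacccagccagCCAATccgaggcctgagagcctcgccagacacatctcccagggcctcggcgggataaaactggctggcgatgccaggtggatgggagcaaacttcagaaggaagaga
Six6, chr12:72939632-72939931, plus strand: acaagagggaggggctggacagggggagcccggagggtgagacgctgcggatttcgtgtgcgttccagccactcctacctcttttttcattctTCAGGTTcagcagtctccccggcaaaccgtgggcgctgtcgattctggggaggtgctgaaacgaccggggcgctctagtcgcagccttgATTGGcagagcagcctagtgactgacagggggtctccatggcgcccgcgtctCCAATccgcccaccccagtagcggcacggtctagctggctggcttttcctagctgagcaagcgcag

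The Six2 window overlapped an occupied region in all 11 libraries. The Six4 window did so in 9 of 9 non-embryonic libraries and in Embryo 1. The printed Pax2 window did so in 3 of 3 WT, 1 of 3 SmoM2 and 3 of 3 SmoM2-Sox9cKO libraries. For the Pax6 window these were 2 of 3, 0 of 3 and 3 of 3. A window overlapping an occupied region is called open in that library, although the library's own interval may lie elsewhere in the merged region. The other 2 Pax2 windows, one of them at the first start site, and the second Pax6 window overlapped no region in any library. The second Six4 window was open in the same libraries as the first. The Pax8 and Six6 windows likewise overlapped no region in any library. Among all 32619 promoter windows on these chromosomes, 43.4% were open in all 9 non-embryonic libraries and 49.0% in none of them. The windows differed in CpG content, with 37 CpG in the Six2 window, 30 in that of Pax2, 20 in Six6, 18 in Pax6, 16 in Six4 and 7 in Pax8, against a median of 7 over all windows. CCAAT was present in the Six2, Pax6, Pax8 and Six6 windows and in 37.4% of all 32851 windows, ACAAT in the Six2 and Pax6 windows and in 31.0% of all, and TCAGGTT in the Six4 and Six6 windows and in 4.07% of all. The inner letters of a Gli site (ACCACCC, in 4.61% of all windows), the AP-1 site (TGANTCA, 7.81%) and the TATA box (TATAAA, 13.6%) were searched on both strands as well, and these letters were in none of the 10 windows.

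The non-embryonic lists held 69026 to 87910 intervals and the Embryo lists 24902 and 14255, so a count in Embryo is limited by its shorter list. The number of reads is not given, so the depth behind a list is unknown. Of 4 epithelial markers with a promoter window (8 were listed), 3 were open in 9 of 9 non-embryonic libraries, and Krt14 was open in none. Of 7 skeletal muscle markers with a window, 5 (Acta1, Chrna1, Des, Myf5 and Myog) were open in none. In each non-embryonic group 1 of the 7 was open in all libraries, and Ckm was closed in every SmoM2 library. The 1 smooth muscle window and 1 of 3 immune windows were open in all libraries of each non-embryonic group. Over all 8 epithelial genes the summed occupied regions were 74 to 84 in WT, 79 to 99 in SmoM2 and 87 to 93 in SmoM2-Sox9cKO. Over all 8 muscle genes the summed occupied regions were 14 to 20 in WT, 13 to 15 in SmoM2 and 14 to 21 in SmoM2-Sox9cKO. Endothelial loci summed to 21 to 24, 31 to 38 and 33 to 37, and fibroblast loci to 13 to 15, 18 to 20 and 21 to 23. Of 3 endothelial windows, those of Emcn and Tek were closed in every library and 1 was open in all 9 non-embryonic libraries. Of 3 fibroblast windows, 0 were open in all WT libraries, 1 in all SmoM2 and 1 in all SmoM2-Sox9cKO libraries, and that of Pdgfra was closed throughout. Both sums were higher in the SmoM2 groups, as were the counts at Pax8 below, and their part in the results was not tested. Intervals at 4 Y-linked genes numbered 5, 0 and 0 for WT, 9 for every one of the SmoM2 libraries and 8, 10 and 0 for SmoM2-Sox9cKO, so these too differ with the groups. The targeted gene Sox9 had 9.0 ± 2.0 occupied regions in WT, 10 ± 1.0 in SmoM2 and 10.3 ± 1.53 in SmoM2-Sox9cKO (mean ± SD, n = 3 each). The deleted part is not named in the labels, so this does not check the deletion.

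The 68 regions had a median width of 730 bp, close to 703 bp for all regions with a gene, and 42 of them (61.8%, against 60.5%) lay in the gene body. Fewer were constant. Of the 68, 18 (26.5%) were occupied in all 9 non-embryonic libraries, against 37.0% of all regions with a gene, and 3 (4.41%) in all 11 libraries, against 9.24%. At the other end, 13 (19.1%) were occupied in 1 non-embryonic library only, against 16.2%. The constant ones were wide (median 1176 bp) and those in 1 library narrow (269 bp), as over all regions (1139 and 284 bp). The libraries held 29, 37 and 42 of the 68 regions in WT, 34, 32 and 40 in SmoM2, 48, 41 and 42 in SmoM2-Sox9cKO, and 12 and 5 in Embryo. These totals overlapped between WT and SmoM2, and the changes between those 2 groups ran in both directions. The SmoM2-Sox9cKO totals all lay above those of SmoM2, and in that comparison 5 regions were gained and 0 lost. Over all regions with a gene the totals of these groups overlapped, at 65926 to 73596 in SmoM2-Sox9cKO and 66951 to 77383 in SmoM2.

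**Figure D1:**
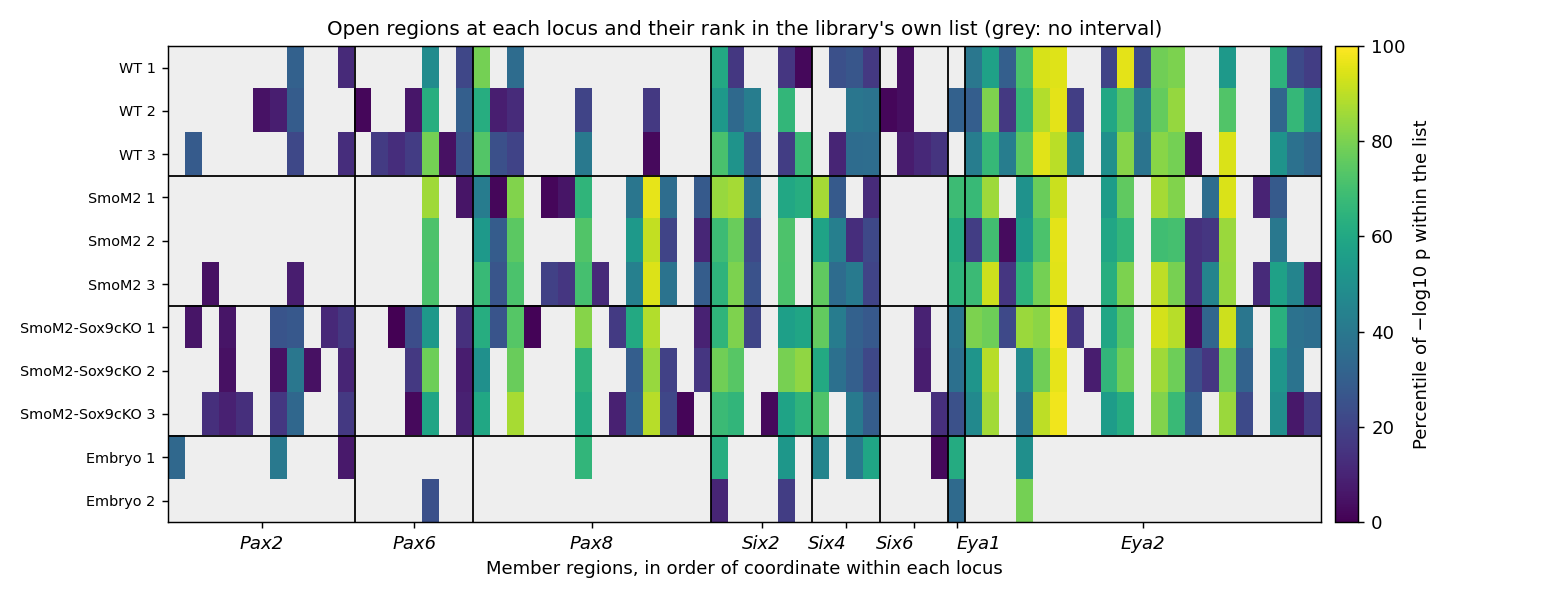
Each column is 1 of the 68 regions, ordered by coordinate within its locus, and each row is a library; colour gives the percentile of the region's −log10 p within that library's own list, and grey marks no interval. Eya2 and Six2 hold regions that are present across the 9 non-embryonic libraries, while the Pax2 columns are almost empty in SmoM2 and those of Six6 are empty there.

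Pax2, a paired-domain factor of the kidney and ear, was low in SmoM2 and high in SmoM2-Sox9cKO. WT libraries held 2, 3 and 3 occupied regions, SmoM2 libraries 0, 0 and 2, and SmoM2-Sox9cKO libraries 6, 5 and 6. The order was thus SmoM2 lowest, WT next and SmoM2-Sox9cKO highest. WT and SmoM2 touched at 2 regions, and SmoM2-Sox9cKO stood above all 6 others. On the scale of log2 of scaled occupied regions, Pax2 fell by 2.00 in SmoM2 against WT (SE 0.50, limma adjusted p = 0.034) and was 2.91 higher in SmoM2-Sox9cKO than in SmoM2 (SE 0.50, adjusted p = 0.036). The log2 change of SmoM2-Sox9cKO against WT was 0.91 (SE 0.50, adjusted p = 0.353) and did not pass. It passed in a fit of those 6 libraries alone (adjusted p = 0.0168) and without SmoM2 replicate 3 (0.0108). The 2 calls were both lost in fits of only the 6 libraries compared. There the adjusted p was 0.0545 for SmoM2 against WT and 0.0929 for SmoM2-Sox9cKO against SmoM2. All of these differences had the same direction whichever library was left out, but the calls were fragile. The fall in SmoM2 missed the threshold without any of WT replicates 1, 2 or 3, SmoM2 replicates 1 or 2 or SmoM2-Sox9cKO replicate 1 (adjusted p = 0.0512 to 0.101), and the difference between the SmoM2 groups missed it in 8 of 9 such fits (0.0571 to 0.109), passing without SmoM2 replicate 3, the only SmoM2 library with Pax2 regions. Without that library SmoM2 is at 0, so the size of a log2 change against it rests on the 0.5 added to each count and is not given. Over the other such fits, the log2 changes of SmoM2 against WT ranged from -2.10 to -1.62. Those of SmoM2-Sox9cKO against SmoM2 ranged from 2.53 to 2.97. The sizes with all libraries depend on the added value too. With 1 added in place of 0.5 they were -1.46 and 2.27. With a covariate for whether a library had any Y-linked interval, the log2 changes were -1.82 (adjusted p = 0.149) and 2.82 (adjusted p = 0.0852). Neither passed.

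The Pax2 regions behind these counts were weak ones. All SmoM2-Sox9cKO and no SmoM2 libraries held chr19:44719643-44720421, 26569 bp before the first start site, chr19:44750235-44750998, inside the gene 4015 bp after it, and chr19:44836305-44836981, near the far end of the gene body. The region before the gene was also absent from all 3 WT libraries. The region 4015 bp inside the gene was in WT 2 and Embryo 1, and the one near the far end in WT 1, WT 3 and Embryo 1. Their fold enrichment over local background, the authors' own value for each interval, was 3.02 to 4.42 in SmoM2-Sox9cKO, which placed them between the 4.54th and 26.0th percentile of their lists by −log10 p. The region that covers the printed Pax2 window, chr19:44755818-44757442, had a fold enrichment of 4.11, 4.14 and 3.14 in WT, 3.18 in SmoM2 replicate 3 and 3.90, 5.59 and 4.32 in SmoM2-Sox9cKO. It was the one Pax2 region that WT and SmoM2-Sox9cKO libraries all held.

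Pax6, a master regulator of the eye that is also active in brain and pancreas, held 2, 4 and 6 regions in WT, 2, 1 and 1 in SmoM2 and 4, 3 and 3 in SmoM2-Sox9cKO. WT spread from 2 to 6, touched SmoM2 at 2 and spanned all of SmoM2-Sox9cKO. Pax6 fell by 1.36 on the log2 scale in SmoM2 against WT (SE 0.32, adjusted p = 0.0256). This call ended without WT replicate 2 or 3 or SmoM2 replicate 2 or 3 (adjusted p = 0.067 to 0.0882), and with intervals of −log10 q of at least 5 the log2 change was -0.41 (adjusted p = 0.27). With the Y-linked covariate it was -1.07 (adjusted p = 0.148). Lists of equal length gave -1.12 (adjusted p = 0.0567) and 50% of the region covered gave -1.53 (adjusted p = 0.198). SmoM2-Sox9cKO against SmoM2 gave a log2 change of 1.16 (SE 0.32, adjusted p = 0.182) and SmoM2-Sox9cKO against WT -0.20 (SE 0.32, adjusted p = 0.73), and neither passed. An intragenic region at chr2:105674498-105676763, the widest of the 68 at 2266 bp, was in all 9 non-embryonic libraries and in Embryo 2, with a fold enrichment of 4.30, 5.27 and 6.07 in WT, 9.42, 6.95 and 7.42 in SmoM2 and 4.93, 8.50 and 6.22 in SmoM2-Sox9cKO. The region over the printed first promoter window, chr2:105668396-105669342, was in WT 2 and WT 3, no SmoM2 library and all 3 SmoM2-Sox9cKO libraries, at a fold enrichment of 2.48 and 2.93 in WT and 3.84, 3.54 and 2.56 in SmoM2-Sox9cKO. An overlapping neighbour, Elp4, whose introns hold enhancers of Pax6, is counted apart. It held 2, 5 and 3 regions in WT, 2 in each SmoM2 and 1 in each SmoM2-Sox9cKO library (log2 change of SmoM2-Sox9cKO against WT -1.34, SE 0.22, adjusted p = 0.00747).

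Pax8, the paired-domain factor of thyroid and kidney, went the other way from Pax2 and Pax6 in SmoM2. WT libraries held 2, 5 and 5 regions, SmoM2 libraries 10, 8 and 11, and SmoM2-Sox9cKO libraries 9, 7 and 8. Every library of both transgenic groups was above every WT library. Pax8 rose in SmoM2 against WT by 1.13 (log2 change, SE 0.24, adjusted p = 0.0163) and in SmoM2-Sox9cKO against WT by 0.94 (SE 0.24, adjusted p = 0.0469). The 2 transgenic groups overlapped, with a log2 change of -0.19 (SE 0.24, adjusted p = 0.803). The first call ended without SmoM2 replicate 1 or 3 (adjusted p = 0.0512 and 0.0577) and the second without any of the 6 SmoM2 or SmoM2-Sox9cKO libraries (0.0573 to 0.111). The second also ended with lists of equal length (0.0576), with no filter (0.0534) and with only the 6 libraries compared (0.0957). It passed in 9 of 20 alternatives. Within 20 kb of the gene body the log2 changes were 0.81 (adjusted p = 0.0867) and 0.61 (adjusted p = 0.229), and neither passed.

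Much of the Pax8 difference lay upstream of the gene, in the 128261 bp that separate it from Cacna1b. Of 5 upstream regions, 3 were in 3 of 3 SmoM2 and 0 of 3 WT libraries. The nearest, chr2:24478384-24480292, lay 3739 bp from the gene body, was 1909 bp wide and was in all 6 transgenic libraries, with a fold enrichment of 5.55 to 6.60 in SmoM2 and 4.89 to 6.96 in SmoM2-Sox9cKO. The other two, at chr2:24510758-24511425 and chr2:24521274-24522215, lay 35492 and 46145 bp away and were each in 2 of 3 SmoM2-Sox9cKO libraries. A further upstream region at chr2:24494764-24496331, picked after its values were seen, was absent from WT 1 and had a fold enrichment of 3.74 and 2.76 in WT 2 and WT 3, 12.1, 9.60 and 11.5 in SmoM2 and 9.01, 11.1 and 10.3 in SmoM2-Sox9cKO. It ranked between the 84.7th and 96.1st percentile in the 6 transgenic lists and at the 16.5th and 2.40th in the 2 WT lists that hold it. These ranks come from lists of different length and are given as a description. The region at the other end, chr2:24416739-24417703, was in all 9 non-embryonic libraries, so the gene was not without open chromatin in WT, while the printed Pax8 promoter window was in no list.

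**Figure D2:**
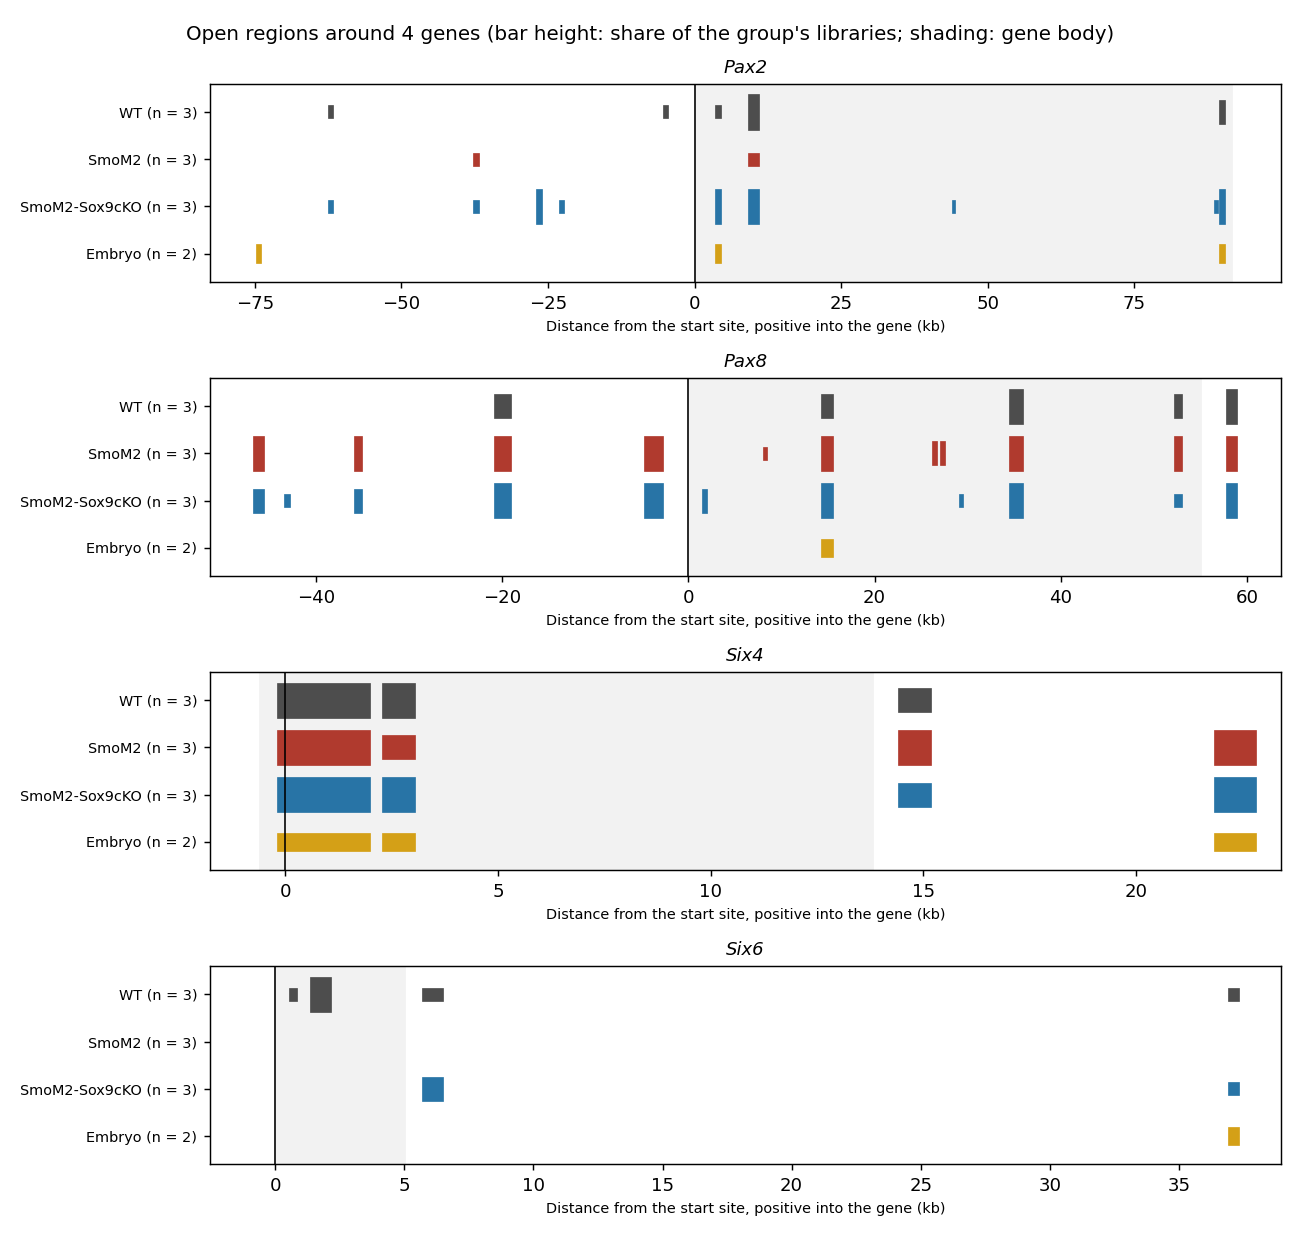
Position of open regions around Pax2, Pax8, Six4 and Six6 as distance from the most upstream start site in kb, positive into the gene, with 1 row per group; bar height is the share of the group's libraries that hold the region and shading marks the gene body. At Pax8, 4 of the 5 bars left of the start site are full height in SmoM2, and WT holds only the one at 19948 bp, in 2 of 3 libraries; at Six6 the SmoM2 row is empty.

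Six2, which keeps kidney progenitors undifferentiated, was the most even of the Six-family genes. It held 4, 4 and 5 regions in WT, 5, 4 and 4 in SmoM2 and 5, 4 and 5 in SmoM2-Sox9cKO. The 3 groups overlapped, and none of the comparisons passed (log2 change -0.12 in SmoM2 against WT, SE 0.15, adjusted p = 0.565). Its regions include 2 of the 3 that were open in all 11 libraries. The first, chr17:85687829-85689352, covers the printed promoter window, and the other, chr17:85645181-85646331, lies 16980 bp below the gene, on the side of Six3. Some of its regions were less even. The region at chr17:85664443-85665222 was in 2 of 3 WT, 3 of 3 SmoM2 and 1 of 3 SmoM2-Sox9cKO libraries. The one at chr17:85680731-85680988 was in SmoM2-Sox9cKO 3 only. At chr17:85697517-85698328, picked after its values were seen, an interval was called in WT 1, WT 3, SmoM2 1 and all 3 SmoM2-Sox9cKO libraries.

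Six4, a homeodomain factor of muscle and kidney, held 3, 2 and 3 regions in WT, 3, 4 and 4 in SmoM2 and 4, 4 and 3 in SmoM2-Sox9cKO. The groups touched at 3 regions, and the log2 change of SmoM2 against WT was 0.28 (SE 0.20, adjusted p = 0.37). A single region set the transgenic groups apart. The region at chr12:73090632-73091577, 8505 bp beyond the gene body, was in all 6 transgenic libraries, in Embryo 1 and in no WT library. Its fold enrichment was 12.9, 7.54 and 12.1 in SmoM2, 9.59, 9.71 and 11.3 in SmoM2-Sox9cKO and 4.84 in Embryo 1. By −log10 p it stood between the 58.0th and 86.7th percentile of the 6 transgenic lists. In the SmoM2 lists it ranked above the other 4 regions gained there, which reached at most the 54.2nd. The region over the printed Six4 promoter, chr12:73111469-73113609, also lies in the body of the overlapping gene Mnat1 and was given to Six4 as the shorter gene.

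Six6, an eye and pituitary factor, held 1, 2 and 3 regions in WT, 0 in each SmoM2 library and 1 in each SmoM2-Sox9cKO library. SmoM2 was thus listed at 0, below every WT and SmoM2-Sox9cKO library, so no log2 change is given against it. Embryo 1 held 1 region and Embryo 2 held 0. The locus fell in SmoM2 against WT (limma adjusted p = 0.00031) and rose in SmoM2-Sox9cKO against SmoM2 (adjusted p = 0.0152). Against WT, SmoM2-Sox9cKO had a log2 change of -0.72 (SE 0.22, adjusted p = 0.0823). Where every library of a group holds the same count, only library totals set its spread. The locus met the filter of a mean of 1 region exactly, and WT is the group that carried it past. WT is not part of the comparison of SmoM2-Sox9cKO with SmoM2. In a fit of only the 6 libraries of that comparison the locus fell under the filter and had no test. The adjusted p-values of the fall and the rise are thus a description and support nothing by themselves. Without WT replicate 2 or WT replicate 3 it fell under the filter and had no test, so its passing in the other 7 fits without a library does not show that the fall is stable. The second call ended without SmoM2 replicate 1 or 2 or SmoM2-Sox9cKO replicate 3 (adjusted p = 0.0519 to 0.0544). The comparison of SmoM2-Sox9cKO with WT passed without WT replicate 1 (log2 change -0.98, adjusted p = 0.00783). With the Y-linked covariate the fall and the rise both passed (adjusted p = 0.00164 and 0.0229). The region that was in 3 of 3 WT libraries and in no other list, chr12:72941282-72942024, lies in the gene body. Its fold enrichment of 2.94, 2.80 and 2.85 placed it at the 3.53rd to 7.46th percentile of the WT lists. The region held by SmoM2-Sox9cKO 1 and 2 was another one, chr12:72945627-72946358, 1093 bp beyond the gene, and was also in WT 3. That of SmoM2-Sox9cKO 3, chr12:72976816-72977172, was also in WT 3 and Embryo 1.

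Eya1, a phosphatase and Six-family partner of ear, kidney and branchial arches, had a single region within reach, chr1:14309508-14310518, near the upper end of its gene body. It was in WT 2 only among the WT libraries and in all 8 others. Its fold enrichment was 4.81 in WT 2, 8.69, 7.64 and 8.92 in SmoM2, 5.53, 6.05 and 4.46 in SmoM2-Sox9cKO and 5.73 and 3.95 in Embryo. With a mean under 1 region the locus was not tested. Eya2, which is active in muscle and cranial placodes, had 21 regions. WT libraries held 15, 16 and 17, SmoM2 libraries 13, 14 and 17 and SmoM2-Sox9cKO libraries 18, 16 and 15. The counts overlapped, and the log2 change of SmoM2 against WT was -0.25 (SE 0.08, adjusted p = 0.0732), that of SmoM2-Sox9cKO against SmoM2 0.22 (SE 0.08, adjusted p = 0.317) and that of SmoM2-Sox9cKO against WT -0.04 (SE 0.08, adjusted p = 0.772). The first of these passed in 2 of 20 alternatives. These were lists of equal length (log2 change -0.30, adjusted p = 0.0153) and at least 50% of the region covered (-0.37, adjusted p = 0.0268). Without scaling by library totals it was -0.13 (adjusted p = 0.65).

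Eya2 combined a stable set of regions with single ones that switched. Of its 21 regions, 11 were in all 9 non-embryonic libraries, and chr2:165601028-165602137 was in all 11. The region at chr2:165627696-165628895 had a fold enrichment of at least 7.75 and stood between the 89.6th and 98.9th percentile in these 9 lists. Against this, chr2:165652190-165652732 was in 3 of 3 WT and none of the 6 transgenic libraries, chr2:165682658-165683036 was in no WT library, each SmoM2 library and 2 of 3 SmoM2-Sox9cKO libraries, and chr2:165701200-165702156 was in 3 of 3 SmoM2-Sox9cKO and none of the 6 others. These switching regions all lie in the gene body. The region over the lower end of the gene body, chr2:165594611-165596036, was in 3 of 3 WT, 2 of 3 SmoM2 and 1 of 3 SmoM2-Sox9cKO libraries. The locus total adds up regions that changed in opposite directions.

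**Figure D3:**
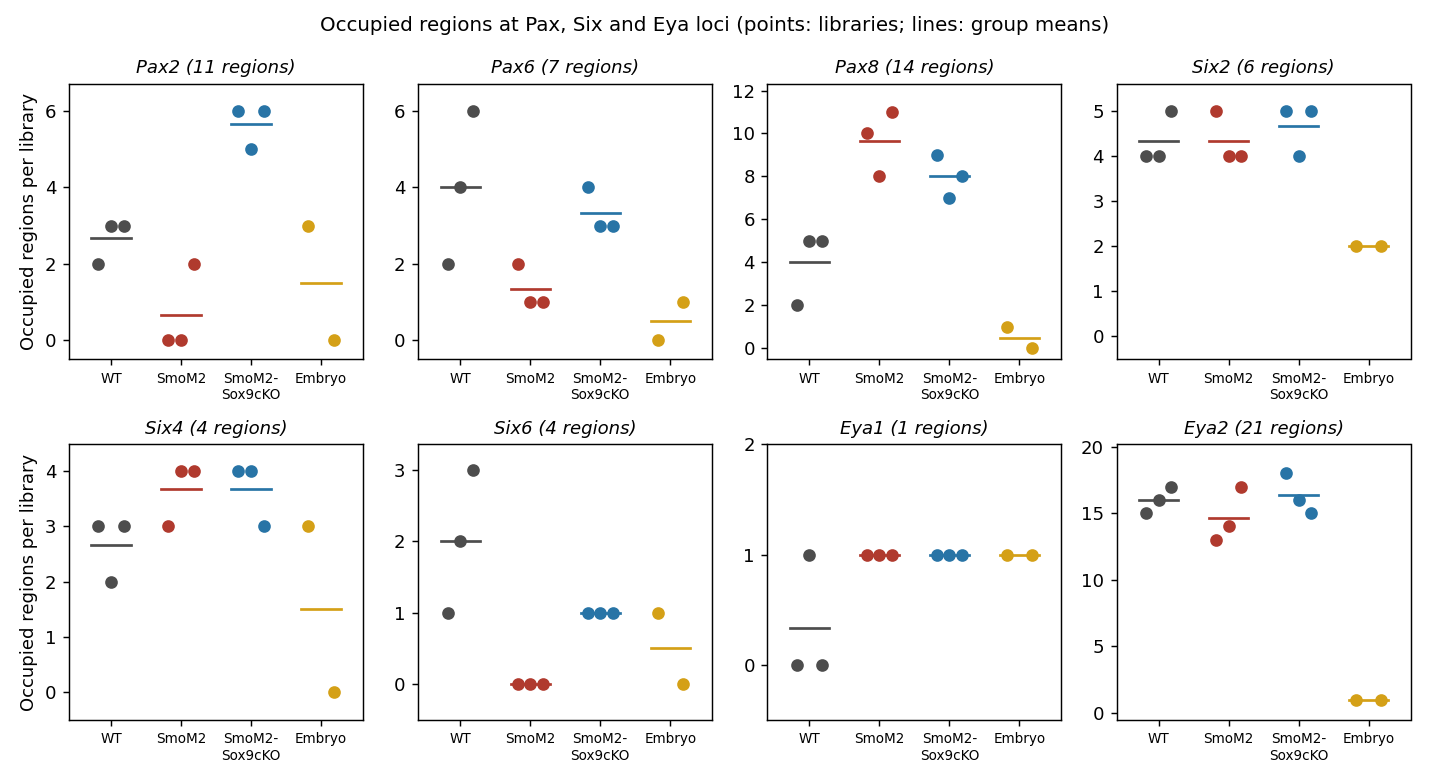
Number of occupied regions per library at each of the 8 loci, with points for libraries and lines for group means (WT, SmoM2 and SmoM2-Sox9cKO n = 3, Embryo n = 2). Pax8 is at 2 to 5 in WT and 8 to 11 in SmoM2, Pax2 at 0 to 2 in SmoM2 and 5 to 6 in SmoM2-Sox9cKO, and Six6 is at 0 in each SmoM2 library.

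Across the 8 loci, 7 were tested in each comparison, in one limma fit over 15365 loci of the genome. In SmoM2 against WT, Pax8 rose, Pax2, Pax6 and Six6 fell and 3 did not pass, while 5.20% of all tested loci rose and 5.75% fell. On the scaled values the groups did not overlap at 5 of the 7 (Pax2, Pax6, Pax8, Six6 and Eya2), against 25.7% of all tested loci, although the unscaled counts touch or overlap at Pax2, Pax6 and Eya2. In SmoM2-Sox9cKO against SmoM2, Pax2 and Six6 rose and 5 did not pass, while 0.423% of all loci rose and 0.430% fell. The scaled values did not overlap at 4 of the 7 (Pax2, Pax6, Six6 and Eya2, the last of which overlaps unscaled), against 11.5% of all. In SmoM2-Sox9cKO against WT, Pax8 rose and 6 did not pass, while 3.99% rose and 3.42% fell. Scaled values did not overlap at 3 of the 7 (Pax2, Pax8 and Six6, the last of which touches at 1 unscaled), against 22.0% of all. Because occupancy chose the genes, nothing is read from these counts. None of the 7 fell in the last 2 comparisons by this limma test, with 0 and 1 lower at an unadjusted p under 0.05. The median log2 change of the 7 was -0.25, 0.22 and 0.03 in the 3 comparisons, beside -0.12, 0.06 and -0.06 over all tested loci. These comparisons share groups with one another, so their agreement or difference is not a separate result. Without scaling by library totals none of the Pax2, Pax6 and Pax8 calls passed (adjusted p = 0.0766 to 0.217), and Six6 passed in SmoM2 against WT only.

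**Figure D4:**
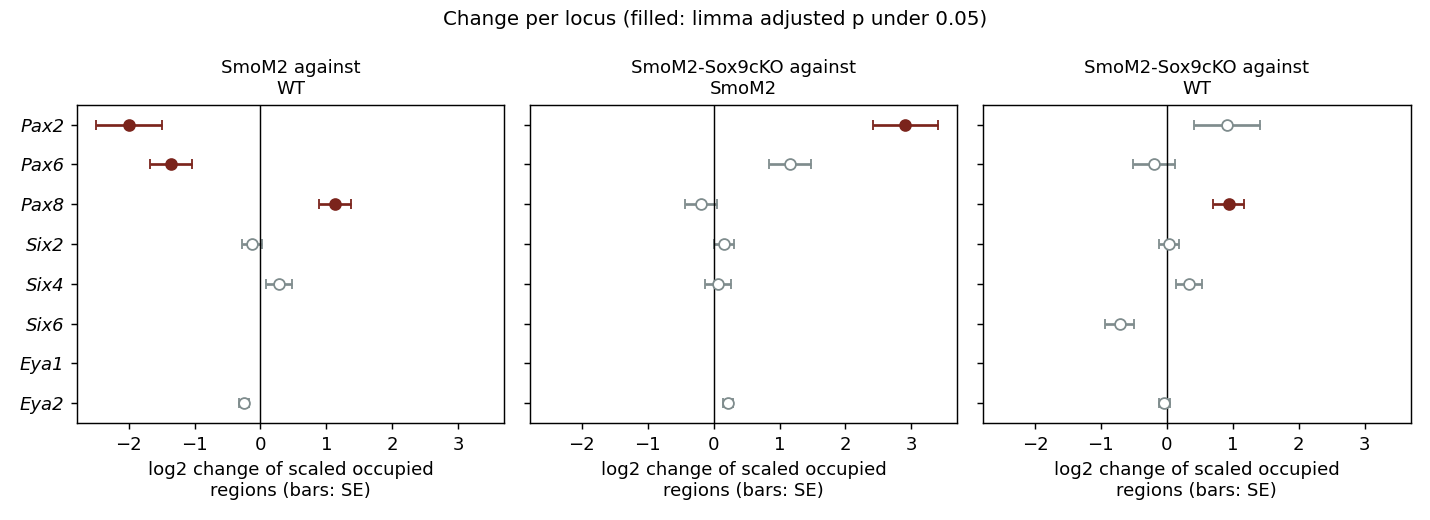
Log2 change of scaled occupied regions per locus in the 3 comparisons, with the standard error; filled points have a limma adjusted p under 0.05. Six6 is drawn only for SmoM2-Sox9cKO against WT because SmoM2 is at 0, and Eya1 was not tested; Pax2 lies at -2.00 in the first panel and 2.91 in the second.

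Single regions were also counted as gained (3 of 3 libraries of the first group, 0 of 3 of the second) or lost (the reverse), a rule with no test since 3 against 3 cannot pass 0.05 for 1 region. In SmoM2 against WT 5 of 68 regions were gained (3 at Pax8, 1 at Six4, 1 at Eya2) and 2 lost (Six6 and Eya2). These shares of 7.35% and 2.94% are near the 6.34% and 3.03% of all regions with a gene. In SmoM2-Sox9cKO against SmoM2 5 were gained (3 at Pax2, 1 at Pax6, 1 at Eya2) and 0 lost, beside 0.681% and 1.19% of all regions. The count of 5 was 2 with stricter intervals, with lists of equal length or with at least 50% of a region covered. In SmoM2-Sox9cKO against WT 4 were gained and 2 lost (5.88% and 2.94%), beside 4.04% and 2.58%. In the first comparison, 8 were gained without SmoM2 replicate 2, and 5 and 4 were lost without SmoM2 replicate 3 or WT replicate 1. In the second, 3 and 2 were lost without SmoM2 replicate 2 or SmoM2-Sox9cKO replicate 1.

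Among the other genes of the network, Pax1, a paired-domain factor of pharyngeal pouches and vertebrae, was the only one called. Of 13 other Pax-, Six-, Eya- and Dach-family genes on the list, 12 were tested, and Six5 had no region. Pax1 held 2, 4 and 3 regions in WT, 6, 5 and 6 in SmoM2 and 6, 5 and 6 in SmoM2-Sox9cKO. It rose against WT in SmoM2 (log2 change 0.73, SE 0.17, adjusted p = 0.0242) and in SmoM2-Sox9cKO (0.79, SE 0.17, adjusted p = 0.023). None of the 12 passed in SmoM2-Sox9cKO against SmoM2, with 3 higher and 1 lower at an unadjusted limma p under 0.05. Of those not called, Dach1, a transcriptional cofactor of the network, had the largest log2 changes in the first 2 comparisons. It held 3, 7 and 2 regions in WT, 8, 9 and 8 in SmoM2 and 4, 5 and 1 in SmoM2-Sox9cKO, with 1.01 (SE 0.49, adjusted p = 0.244) for SmoM2 against WT and -1.34 (SE 0.49, adjusted p = 0.329) for SmoM2-Sox9cKO against SmoM2. Its SmoM2 counts lay above those of every other library, yet the spread in the other groups was wide. In SmoM2 against WT, the next were Pax5 at -0.81 (adjusted p = 0.198), Eya3 at 0.70 (0.106) and Pax7 at -0.60 (0.104). In SmoM2-Sox9cKO against SmoM2 they were Six3 at 0.75 (0.133), Pax7 at 0.67 (0.242) and Pax9 at 0.58 (0.326). Against WT, SmoM2-Sox9cKO had Pax5 at -0.59 (0.413), Dach1 at -0.34 (0.713) and Eya3 at 0.32 (0.568). Pax9, a factor of the squamous esophagus, held 5, 6 and 7 regions in WT, 4, 5 and 5 in SmoM2 and 5, 8 and 8 in SmoM2-Sox9cKO (log2 change of SmoM2 against WT -0.45, SE 0.21, adjusted p = 0.228).

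The 3 members with the largest spread over the 9 non-embryonic libraries were Pax2 (SD of 1.43 on the log2 scale), Six6 (1.08) and Pax6 (0.74). The loci nearest to them in Euclidean distance of log2 scaled values over these 9 libraries were Olfm1, Oprd1 and Cd40 for Pax2 (distances 1.65, 2.17 and 2.18), Bicc1, Gask1a and Gabpa for Six6 (0.88, 1.55 and 1.66) and Ago3, Oasl2 and Nr1h5 for Pax6 (0.98, 0.98 and 1.13). Olfm1, for instance, held 1, 2 and 2 regions in WT, 0, 0 and 1 in SmoM2 and 3, 4 and 4 in SmoM2-Sox9cKO.

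In the embryo, 13 of the 68 regions (19.1%) were occupied in at least 1 library, against 21.8% of all regions with a gene, and 4 in both. The 4 were both constant Six2 regions, the Eya1 region and chr2:165601028-165602137 at Eya2. Eya2 thus kept 1 of its 21 regions in each embryonic library, Pax8 had 1 and 0, and Pax6 0 and 1. Six4 and Pax2 each had 3 in Embryo 1 and 0 in Embryo 2, the shorter list, so the 2 libraries do not agree for these genes. One Pax2 region, chr19:44672040-44672461, picked after its values were seen, was in Embryo 1 and in no other list.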

How the data were processed

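The 11 interval lists, one per library, were used. The submitters' processing notes name Trimmomatic, Bowtie2, Picard, MACS2 and deepTools and the build GRCm38 (mm10). The role, version and parameters of each tool are not given in the sources here. The deposited columns, in the layout of a MACS2 narrowPeak file, are the score, which was not used, the fold enrichment over local background, the −log10 p and −log10 q values and the summit position, which was not used. Duplicate lines of an interval were merged, keeping the highest value. Genes are from the GRCm38.p6 RefSeq table. Where gene bodies overlapped, a region went to the shorter. Coordinates are 1-based.

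Loci were tested with limma 3.58.1 in R 4.3.3 (with a variance trend, not robust). Values were log2((occupied regions + 0.5) / (total occupied regions + 1) × 100000), for loci with a mean of at least 1 region over the 9 libraries of WT, SmoM2 and SmoM2-Sox9cKO. Benjamini-Hochberg adjustment covered all 15365 tested loci at 0.05. An increase means more occupied regions, not more signal or expression. The scaling sets the median log2 change of SmoM2 against WT at -0.12. Only the limma step was run on simulated counts, which had no spread between libraries beyond sampling. Its outcome is not given here, so it lends no support to the other steps.

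The 8 genes, the gene lists and the motifs were chosen with earlier results of these data known. Named were the 8 genes, called genes of the wider list and up to 4 others with the largest changes (1 of these is not reported here), Sox9, Elp4, the loci nearest in pattern, regions over gene ends or in all 11 libraries, and gained or lost regions. Alternatives were stricter intervals (−log10 q of at least 5), the top 69026 intervals of each list, 50% of a region covered, a 20 kb locus, no scaling, a pseudocount of 1, no filter, the 6 libraries compared, a replicate block, Y-linked intervals as a covariate, leaving out each library and, chosen after seeing the data, overlapping genes given to the longer body.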

Additional observations from a re-analysis of the deposited data

How the results depend on the processing

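Locus counts rest on low numbers of regions and unknown depth. In the alternatives that could be fitted, called loci kept their direction. Pax2 had no fit with stricter intervals, and Six6 none with stricter intervals, equal lists, 50% covered, 20 kb or without WT 2 or WT 3, because they fell under the filter. For the same reason Six6 had no fit of SmoM2-Sox9cKO against SmoM2 with only the 6 libraries compared. Only Six6 in SmoM2 against WT passed in every one fitted (14), which says nothing of the others. Reversals concerned uncalled loci: Six2 in SmoM2 against WT (0.34 with stricter intervals, 0.12 with 50% covered), Six2 with equal lists in SmoM2-Sox9cKO against SmoM2 (-0.000134) and against WT (-0.00389), both near 0, Eya2 in SmoM2-Sox9cKO against WT (0.0267 without scaling), and, leaving out 1 library, Six4 in SmoM2-Sox9cKO against SmoM2 (range -0.0475 to 0.168, below 0 without SmoM2 1 or SmoM2-Sox9cKO 2), Six2 (-0.0482 to 0.118, below 0 without WT 2 or SmoM2-Sox9cKO 3) and Pax6 (-0.512 to 0.0974, above 0 without WT 3) in SmoM2-Sox9cKO against WT. The causes were not tested.

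Over all loci, SmoM2 against WT had 799 higher and 884 lower, with 341 lower without scaling and 392 and 335 with the Y-linked covariate, and 537 to 844 lower without 1 library (537 without WT 3, 548 without SmoM2 1). SmoM2-Sox9cKO against SmoM2 had 65 higher and 66 lower, which became 17 and 24 with stricter intervals, 27 and 36 with 50% covered, 102 and 122 with no filter, 13 and 21 with the Y-linked covariate, 29 lower with 6 libraries, and 8 to 107 higher and 20 to 71 lower without 1 library (8 and 20 without SmoM2-Sox9cKO 3, 107 higher without SmoM2 3). SmoM2-Sox9cKO against WT had 525 lower, 261 without scaling and 337 to 523 without 1 library (337 without SmoM2-Sox9cKO 2, 344 without WT 2).

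With the replicate block, SmoM2-Sox9cKO against SmoM2 had 37 higher and 38 lower, and no call of the 8 genes changed. The numbers do not pair libraries: same-number correlations were -0.0672 to 0.0802, and 0 of 9 libraries correlated best with their own number.

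Of the 68 regions, SmoM2 against WT gained 3 within 20 kb and 5 to 8 without 1 library, and lost 0 with stricter intervals, 5 with equal lists, 4 with 50% covered and 2 to 5 without 1 library. SmoM2-Sox9cKO against SmoM2 gained 2 with stricter intervals, 2 with equal lists and 2 with 50% covered, and lost 1 with 50% covered and 0 to 3 without 1 library. SmoM2-Sox9cKO against WT lost 0, 1 and 1 under these 3 settings. Embryo 2 held 1 with stricter intervals and 1 with 50% covered.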
